A study of Mus musculus with 14 samples.

Results

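The DNA replication and S phase genes are a list of 43 genes that code for the proteins that license origins, unwind and copy DNA, supply deoxynucleotides and pack the new strand into chromatin. They were measured on Affymetrix Murine Genome U74v2 arrays, and a probe set counted as a member when its only annotated gene symbol was on the list. Of the 43 genes, 41 had such a probe set, with 53 probe sets among them, out of 12422 probe sets and 8251 gene symbols on the array. Pole, the catalytic subunit of DNA polymerase epsilon, and Tyms, thymidylate synthase, had none. A total of 35 genes reached the signal needed for a test, and 6914 probe sets were tested in all.

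In every cell cycle the origin recognition complex, Cdc6 and Cdt1 load the MCM helicase on DNA in G1 phase. Kinases and Cdc45 activate the helicase at the start of S phase, and primase, the DNA polymerases, the PCNA clamp with its loader, RPA, Fen1 and DNA ligase then copy both strands. Many of these genes are transcribed periodically under E2F factors, most cells of adult lung are not dividing, and Myc is known to promote entry into S phase.

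Tumors were taken from SPC/c-Myc transgenic mice, in which the human surfactant protein C promoter drives c-Myc in the respiratory epithelium, and were compared with lung of non-transgenic mice; all animals were CD2F1 (DBA/2 x Balb/C) and 9 to 13 months old. There were 3 small tumor pools of about 1 mm with 3 to 4 tumors per pool, 4 middle-sized tumors of 4 to 5 mm, 3 large tumors of at least 10 mm and 4 control lungs. Per the methods every array stood for its own animal, and the 3 tumor sizes were set against the same 4 control lungs. The MAS 5 signal is an intensity for which the methods set a common target of 250 for each array. It was set to at least 70, the methods' limit for an expressed gene, before log2 was taken.

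Myc itself had signals of 325 to 2165 on the 10 tumor arrays, against 24.1 to 35.6 in control lung. Of 5 markers of type II alveolar cells, which make surfactant, Sftpc, Napsa and Slc34a2 were above 70 on all arrays, Sftpb on the 13 where it had a value, and Sftpd on 1. Their summed signal was 21901 to 33374 in the 9 tumors with all 5 values and 16327 to 26149 in control lung, and 1 of the 4 tested was higher. Markers of several other cell types of lung gave less signal in the tumors. Summed over the list, endothelial markers gave 945 to 2344 in tumors and 12881 to 17427 in control lung (7 of 8 tested lower), type I alveolar markers gave 3119 to 6664 in tumors and 11563 to 18333 in control lung (4 of 4 lower), and cardiac muscle markers gave 382 to 600 in tumors and 4639 to 8633 in control lung (6 of 6 lower). The sums of erythroid markers were 1492 to 7131 in tumors and 11766 to 22130 in control lung (3 of 3 lower), and those of club cell markers were 2964 to 17242 in tumors and 14441 to 23832 in control lung (1 of 3 lower). Lymphocyte markers summed to 669 to 3091 in tumors and 2449 to 3028 in control lung (3 of 6 lower, 3 more below 70 on every array), and macrophage markers to 4785 to 8538 in tumors and 6775 to 8902 in control lung (2 of 7 lower). The part of this difference in cell makeup in the values below was not tested, and in bulk tissue fewer cells of a type and less RNA per cell cannot be told apart. On the array of middle-sized tumor 3, 25.2% of the values stood at or close to 0 and were taken as missing, so Mcm3, Gmnn, Rfc2, Rfc3 and Rpa3 had 9 tumors instead of 10.

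Because many of the genes moved together, their promoters were searched for the letters of E2F-type sites (TTTCCCGC, TTTGGCGC, TTTCGCGC and TTTGCCGC, which can overlap one another when read on opposite strands) and for the E-box CACGTG, the sequence that Myc and Max bind, on both strands. The windows ran from 250 bases before to 50 bases after each RefSeq start (GRCm38.p6), and 38 of the 43 genes had one. Mcm4, Gmnn, Prim2, Pole and Rfc2 were not matched. An E2F-type match was found in 11 of the 38 genes (28.9%), against 4.83% of the 4944 matched genes tested on the arrays and 2.6% of all 27025 genes in the promoter table. The E-box was found in 9 of the 38 (23.7%), against 12.3% and 8.09%. Among genes called higher in the tumors 7 of 20 had an E2F-type match (35%) and 1 of 20 the E-box (5%), and among genes tested and not called these were 2 of 11 (18.2%) and 7 of 11 (63.6%). The called gene with the E-box was Fen1, and the genes not called that had an E2F-type match were Rfc3 and Lig1. A match in any window of a gene counted, and called genes had 1.15 windows on average, against 1.36 for genes not called. Cdc6 and Pola1 among the called genes, and Rfc3 among the others, reached the signal needed for a test only with the help of tumors. The difference between called genes and the others was not tested. The letters are a description of these windows and not evidence of binding. Shown are 60-base stretches of the 4 called genes whose E2F-type match lay before the start, and of 3 of the 6 genes tested without a call that held the E-box there, with the matched letters in capitals, 5′ to 3′ on the strand of the gene.
Mcm5, chr8:75109330-75109389, plus strand: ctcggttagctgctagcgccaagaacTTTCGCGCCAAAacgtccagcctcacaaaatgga
Mcm7, chr5:138172015-138172074, minus strand: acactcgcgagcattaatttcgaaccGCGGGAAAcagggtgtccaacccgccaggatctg
Cdc6, chr11:98907987-98908046, plus strand: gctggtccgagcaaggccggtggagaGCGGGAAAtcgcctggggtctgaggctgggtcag
Pola1, chrX:93632260-93632319, minus strand: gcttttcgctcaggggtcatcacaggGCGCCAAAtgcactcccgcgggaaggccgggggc
Pola2, chr19:5964394-5964453, minus strand: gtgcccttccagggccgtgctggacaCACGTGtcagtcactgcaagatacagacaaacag
Rpa1, chr11:75348418-75348477, minus strand: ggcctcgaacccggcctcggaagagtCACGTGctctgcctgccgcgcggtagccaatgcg
Chaf1a, chr17:56040291-56040350, plus strand: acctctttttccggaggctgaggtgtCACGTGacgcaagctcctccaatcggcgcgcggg
In Mcm5 the capitals hold 2 overlapping matches, the first of them 153 bases before the start. In Mcm7 the match lay 165 bases before the start, with another 16 bases after it, and in Cdc6 and Pola1 138 bases before it.

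With all tumors set against control lung, 20 of the 35 tested genes were higher and 0 were lower at an adjusted p under 0.05 (limma, Benjamini-Hochberg over all 6914 probe sets). Over all probe sets 23.6% were called higher and 21% lower, and without adjustment 21 of the 35 genes had a p under 0.05, all of them higher in tumors, beside 27.3% of all probe sets higher and 24% lower at that limit. Over the 35 genes the median difference was 0.50 on the log2 scale, beside 0.037 over all probe sets tested. The called genes were the helicase subunits Mcm2, Mcm3, Mcm5 and Mcm7, the loading factors Cdc6 and Cdt1, the activator Cdc45, the polymerase subunits Pola1, Pold1 and Pold2, Pcna, Rfc4 and Rfc5, Rpa3, Fen1, Top2a, Rrm1, Rrm2 and Tk1, and Chaf1b. In 9 genes every tumor array lay above every control array, and in the other 11 called genes at least 1 tumor array did not. The 9 include Pola1, Rfc4, Top2a and Rrm2, which were below 70 in every control lung. The share of all tested probe sets without such overlap was not computed, so this count is no measure of the list. A gene needed 70 on 3 arrays, and 10 genes could reach that only with the help of tumors. Pola1, Prim2, Rfc4, Top2a, Rrm2 and Cdc6 were below 70 in every control lung, and Chaf1b, Rfc3, Rpa2 and Gmnn reached 70 in fewer than 3 of them, so the 6 calls among these 10 are no measure of the list. They include the only calls among topoisomerases and chromatin assembly genes. Of the 25 other genes 14 were called. The count of called genes was 13 without control lung 1 and 14 without control lung 2, where 19.8% and 20.1% of all probe sets were higher.

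**Figure D1:**
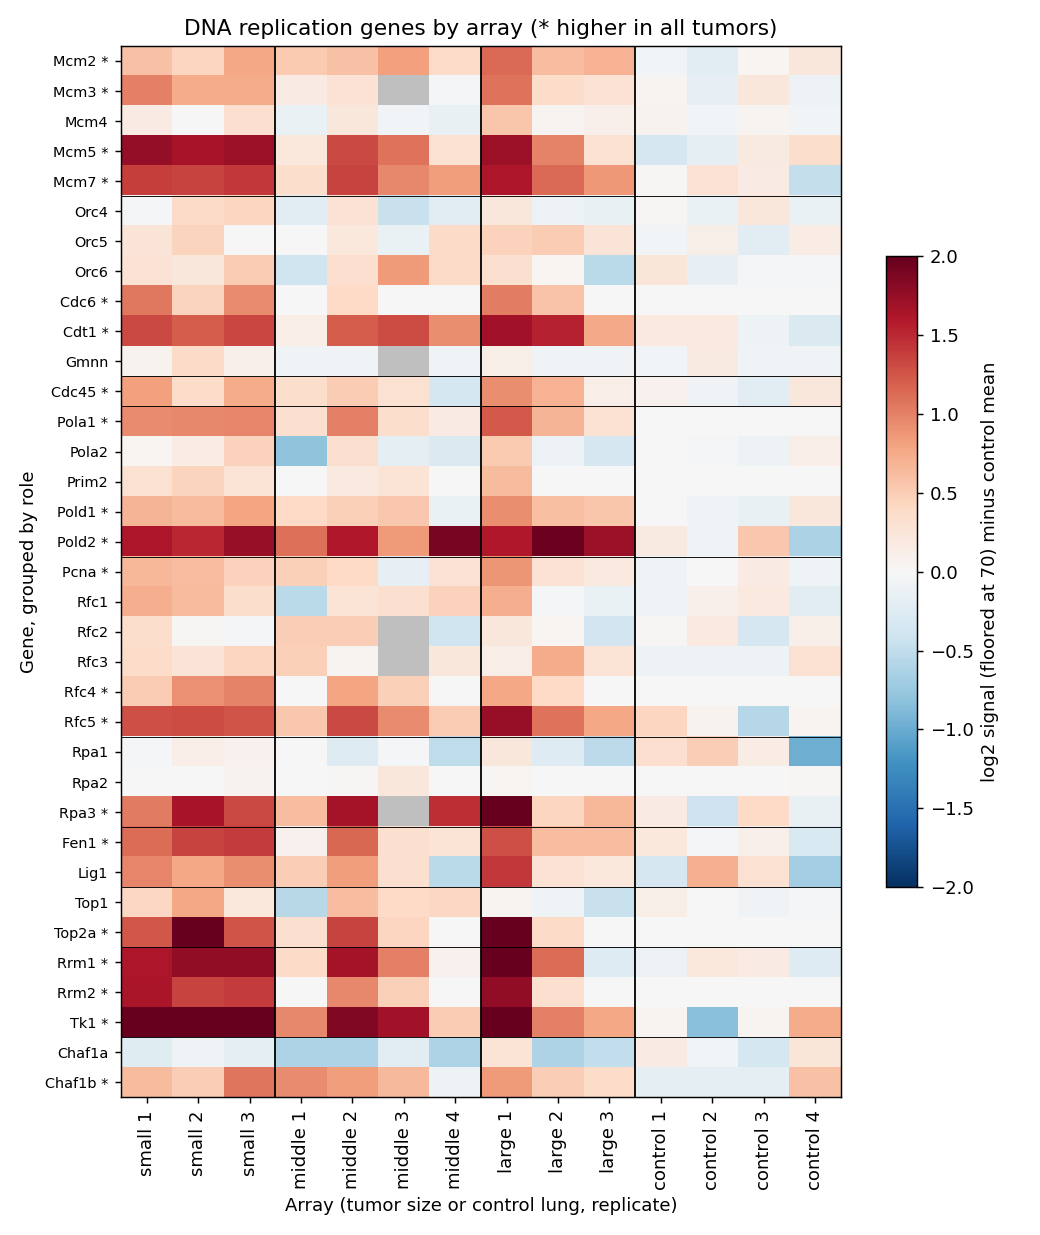
Each row is a tested gene and each column an array, in the order small tumor pools, middle-sized tumors, large tumors and control lung. Color gives the log2 signal (set to at least 70) minus the mean of the 4 control lungs, grey marks missing values, and a star marks the 20 genes higher in all tumors; large tumor 1 is dark in most starred rows, and middle-sized tumor 4 is pale in most.

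Of the 6 subunits of the MCM helicase, 4 of the 5 tested were higher in the tumors. Mcm5 had signals of 694, 642 and 676 in small tumor pools, 238, 511, 433 and 253 in middle-sized tumors, and 673, 405 and 254 in large tumors, against 162, 178, 232 and 263 in control lung. The small pools were all high, whereas middle-sized tumors 1 and 4 and large tumor 3 lay within the range of control lung. The log2 fold change was 1.15 ± 0.25 (SE), with an adjusted p of 0.00188. Mcm7 had 419, 410 and 425 in small pools, 203, 406, 310 and 284 in middle-sized tumors and 488, 352 and 293 in large tumors, against 162, 196, 179 and 115 in control lung. No tumor overlapped with control lung, and the log2 fold change was also 1.15, ± 0.19 (SE, adjusted p = 0.00025). For Mcm2 the tumors also stood clear of control lung, at 173 ± 27.9 (SD, n = 10) against 109 ± 13.8 (SD, n = 4), and the log2 fold change was 0.66 (adjusted p = 0.0019). Mcm3 was 0.52 higher on the log2 scale (adjusted p = 0.0188), and its other probe set was 0.80 higher in a fit of all probe sets (adjusted p = 0.0047). The call of Mcm3 was lost without control lung 2 or 4.

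Mcm4 was the tested subunit without a call. Its signals were 227, 200 and 254 in small pools, 184, 235, 195 and 182 in middle-sized tumors and 295, 209 and 216 in large tumors, beside 211, 193, 209 and 194 in control lung, and the groups overlapped throughout. The log2 fold change was 0.12, with an interval of -0.17 to 0.42 (95%, adjusted p = 0.499). Mcm6 stayed below the limit on every array, with 1.73 to 15.3 in tumors and 1.97 to 18.7 in control lung. A further probe set of Mcm5, which read 25.6 to 113 in 9 tumors and 13.8 to 57.0 in control lung, was not called (adjusted p = 0.77 in the fit of all probe sets).

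Of the 8 genes of origin recognition and licensing, 2 of the 6 tested were higher, and both are the factors that bring MCM to the origin complex. Cdt1 read 455, 422 and 457 in small pools, 199, 419, 448 and 345 in middle-sized tumors and 581, 527 and 308 in large tumors, against 208, 207, 169 and 149 in control lung. Only middle-sized tumor 1 fell within the control range, and the log2 fold change was 1.17 ± 0.21 (SE, adjusted p = 0.000503). The further probe set of Cdt1 showed 135 to 274 in 9 tumors and 54.3 to 87.8 in control lung, a log2 fold change of 1.31 in the fit of all probe sets (adjusted p = 0.00033). Cdc6, an ATPase that works beside Cdt1, was 0.48 higher on the log2 scale (adjusted p = 0.0261), and with control lung below 70 throughout, the small pools were at least 1.79-fold higher, taken as the mean of the pools over 70. The call was lost without any single control lung, with adjusted p of 0.0534 to 0.0603.

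The subunits of the origin recognition complex itself were not called. Orc4 had 181, 239 and 248 in small pools, 158, 225, 135 and 156 in middle-sized tumors and 215, 169 and 164 in large tumors, against 187, 168, 214 and 168 in control lung, with tumors on either side of the controls. Its log2 fold change of 0.04 (interval -0.31 to 0.38) was the smallest of the role, while Orc5 gave 0.25 and Orc6 0.19, with adjusted p of 0.172 and 0.484. Gmnn, which codes for geminin, the inhibitor of Cdt1, was near the limit, with 42.7 to 95.6 in 9 tumors and 41.2 to 82.6 in control lung (log2 fold change 0.04, adjusted p = 0.753). Orc1 was below 70 on every array. Orc2 had 13.7 to 117 in 9 tumors and 14.9 to 25.8 in control lung, with large tumor 2 the only array above 70.

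The helicase is switched on by Cdc45 and by the kinase Cdc7. Cdc45 read 185, 135 and 174 in small pools, 134, 149, 129 and 81.7 in middle-sized tumors and 198, 169 and 115 in large tumors, against 110, 99.4, 89.0 and 122 in control lung. It overlapped with control lung at large tumor 3 and fell below it in middle-sized tumor 4. The log2 fold change of 0.48 ± 0.18 (SE) was the weakest call of the list (adjusted p = 0.0483), and it was lost in 17 of the 26 alternatives tried, with adjusted p up to 0.146. Cdc7 reached 70 on 1 array only, large tumor 1, and ranged from 15.2 to 78.3 in tumors and from 10.9 to 26.8 in control lung.

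Of the polymerase and primase subunits, 3 of the 5 tested were higher. With signals set to at least 70, Pold2, the accessory subunit of polymerase delta, had the largest change of the whole list, level with Tk1. Ratios of the mean signals without that limit were larger for Top2a (13.8), Rrm2 (3.96), Rfc4 (3.76), Tk1 (3.10) and Rrm1 (2.95) than for Pold2 (2.90). The signals of Pold2 were 672, 627 and 736 in small pools, 472, 666, 398 and 820 in middle-sized tumors and 668, 855 and 729 in large tumors, against 249, 208, 320 and 141 in control lung. No tumor reached down to the controls. The log2 fold change was 1.58 ± 0.21 (SE, adjusted p = 2.97e-05), read from the only probe set of the gene, of the type whose probes were chosen by relaxed rules. Pold1, the catalytic subunit of the same enzyme, read 334, 322 and 361 in small pools, 275, 290, 304 and 191 in middle-sized tumors and 396, 317 and 307 in large tumors, against 207, 200, 188 and 245 in control lung. Middle-sized tumor 4 alone lay within the control range, and the gene was 0.57 higher on the log2 scale (adjusted p = 0.00508). The other probe set of Pold1 was not called and read 47.8 to 123 in 9 tumors and 46.2 to 129 in control lung.

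Polymerase alpha starts each new strand together with primase, and 1 of its subunits was called. Pola1, the catalytic subunit, had 78.8 to 164 in tumors and 44.0 to 64.8 in control lung with no overlap, a rise of 0.72 on the log2 scale (adjusted p = 0.00274). Over a control group below 70 throughout, its increase was at least 1.95-fold in small pools, 1.42-fold in middle-sized tumors and 1.73-fold in large tumors. Pola2, the accessory subunit, read 209, 224 and 279 in small pools, 115, 253, 180 and 165 in middle-sized tumors and 291, 187 and 161 in large tumors, against 203, 198, 188 and 222 in control lung. Its tumors lay on either side of a narrow control range, with a log2 fold change of 0.0018 (interval -0.43 to 0.43). The other probe set of Pola2 read 35.9 to 132 in 9 tumors and 103 to 172 in control lung, with 6 tumors below every control. It was not called in the fit of all probe sets (log2 fold change -0.44, adjusted p = 0.233). Among the primase subunits, Prim2 had 38.2 to 109 in tumors and 9.04 to 39.0 in control lung, with 9 of 10 tumors above every control. With signals below 70 set to 70 its log2 fold change was 0.22 (adjusted p = 0.129). The ratio of its mean signals without that limit was 2.63, and it was called higher with no floor or a floor of 35. Prim1 had 9.21 to 101 in tumors and 8.37 to 30.3 in control lung, above 70 on 1 array only.

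Of the sliding clamp and the clamp loader, which opens the clamp and sets it on DNA, 3 of 6 genes were higher. Rfc5, a small subunit of the loader, read 326, 328 and 318 in small pools, 192, 332, 254 and 188 in middle-sized tumors and 443, 283 and 228 in large tumors, against 179, 140, 89.8 and 138 in control lung. Every tumor was above every control, though middle-sized tumors 1 and 4 only just, and the log2 fold change was 1.10 ± 0.22 (SE, adjusted p = 0.000814). A further probe set of Rfc5 close to the limit was not called, at 50.7 to 107 in tumors and 61.2 to 108 in control lung. Rfc4 was at 97.7 ± 31.4 in tumors (SD, n = 10) and 26 ± 7.14 in control lung (SD, n = 4), with a log2 fold change of 0.50 after the limit of 70 was applied (adjusted p = 0.0219) and an increase of at least 1.76-fold in small pools and 1.34-fold in large tumors. The call was lost without control lung 1 or 2.

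Pcna, the clamp, had a high signal already in control lung, 521 ± 42.5 (SD, n = 4), against 704 ± 136 (SD, n = 10) in tumors. It was above every control in 9 of 10 tumors and below every control in middle-sized tumor 3, with a log2 fold change of 0.43 (adjusted p = 0.0238), a call lost without control lung 1, 2 or 4. Rfc2 read 444, 352 and 336 in small pools, 485, 488 and 261 in the 3 middle-sized tumors with a value and 404, 355 and 265 in large tumors, against 350, 398, 275 and 374 in control lung. These ranges overlapped, and the log2 fold change of 0.09 (interval -0.32 to 0.50) was the smallest of the clamp and loader genes. Rfc1 (0.30, adjusted p = 0.256) and Rfc3 (0.33, adjusted p = 0.0601) were not called, and 7 of the 26 alternatives did call Rfc3 higher.

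The heterotrimer RPA covers single-stranded DNA at the fork, and 1 of its 3 subunits was higher. Rpa3, the smallest subunit, read 268, 410 and 327 in small pools, 200, 412 and 362 in the middle-sized tumors with a value and 517, 176 and 207 in large tumors, against 147, 98.1, 172 and 118 in control lung. All 9 tumors were above all controls, large tumor 2 by a small margin, and the log2 fold change was 1.20 ± 0.29 (SE, adjusted p = 0.00385). Rpa1, the largest subunit, had 398, 445 and 432 in small pools, 412, 340, 397 and 288 in middle-sized tumors and 475, 341 and 283 in large tumors, against 512, 576, 454 and 207 in control lung.

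For Rpa1 all tumors fell inside a control range that was widened by control lung 4. The log2 fold change was -0.11 (interval -0.60 to 0.38, adjusted p = 0.737), and without control lung 4 it was -0.44 and called lower (adjusted p = 0.0459). Rpa2 lay around the limit of 70 in both groups, at 64.8 ± 13.3 in tumors (SD, n = 10) and 60.2 ± 9.64 in control lung (SD, n = 4).

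Fen1, the nuclease that trims Okazaki fragments, read 187, 220 and 227 in small pools, 91.2, 192, 107 and 104 in middle-sized tumors and 210, 132 and 132 in large tumors, against 99.8, 85.1, 92.9 and 66.9 in control lung. Only middle-sized tumor 1 was within the control range, and the log2 fold change was 0.86 ± 0.20 (SE, adjusted p = 0.00249). Lig1, the ligase that seals the fragments, had 225, 194 and 218 in small pools, 161, 203, 143 and 78.3 in middle-sized tumors and 305, 139 and 133 in large tumors, against 90.9, 188, 141 and 70.8 in control lung. Its controls spread widely, 5 of 10 tumors lay above all of them, and the log2 fold change of 0.60 ± 0.30 (SE) was not called (adjusted p = 0.118), but was called higher without control lung 2.

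Top2a, the topoisomerase that untangles sister chromatids, was near background in control lung, at 12.0, 9.93, 6.39 and 13.7, and read 165, 300 and 168 in small pools, 87.8, 179, 94.8 and 23.8 in middle-sized tumors and 315, 91.5 and 23 in large tumors. Every tumor was above every control, but middle-sized tumor 4 and large tumor 3 stayed under 70. With signals below 70 set to 70 the log2 fold change was 0.97 ± 0.33 (SE, adjusted p = 0.0277), and small pools were at least 3.02-fold above control lung. The call was lost without any single control lung (adjusted p of 0.0616 to 0.0640), and with no floor the log2 fold change was 3.46. Top1, which relaxes supercoils in all cells, had 1268, 1639 and 1105 in small pools, 648, 1467, 1264 and 1273 in middle-sized tumors and 990, 898 and 705 in large tumors, against 1034, 952, 906 and 934 in control lung. It was above the controls in all small pools and below them in all large tumors but the first, with a log2 fold change of 0.18 (adjusted p = 0.473).

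**Figure D2:**
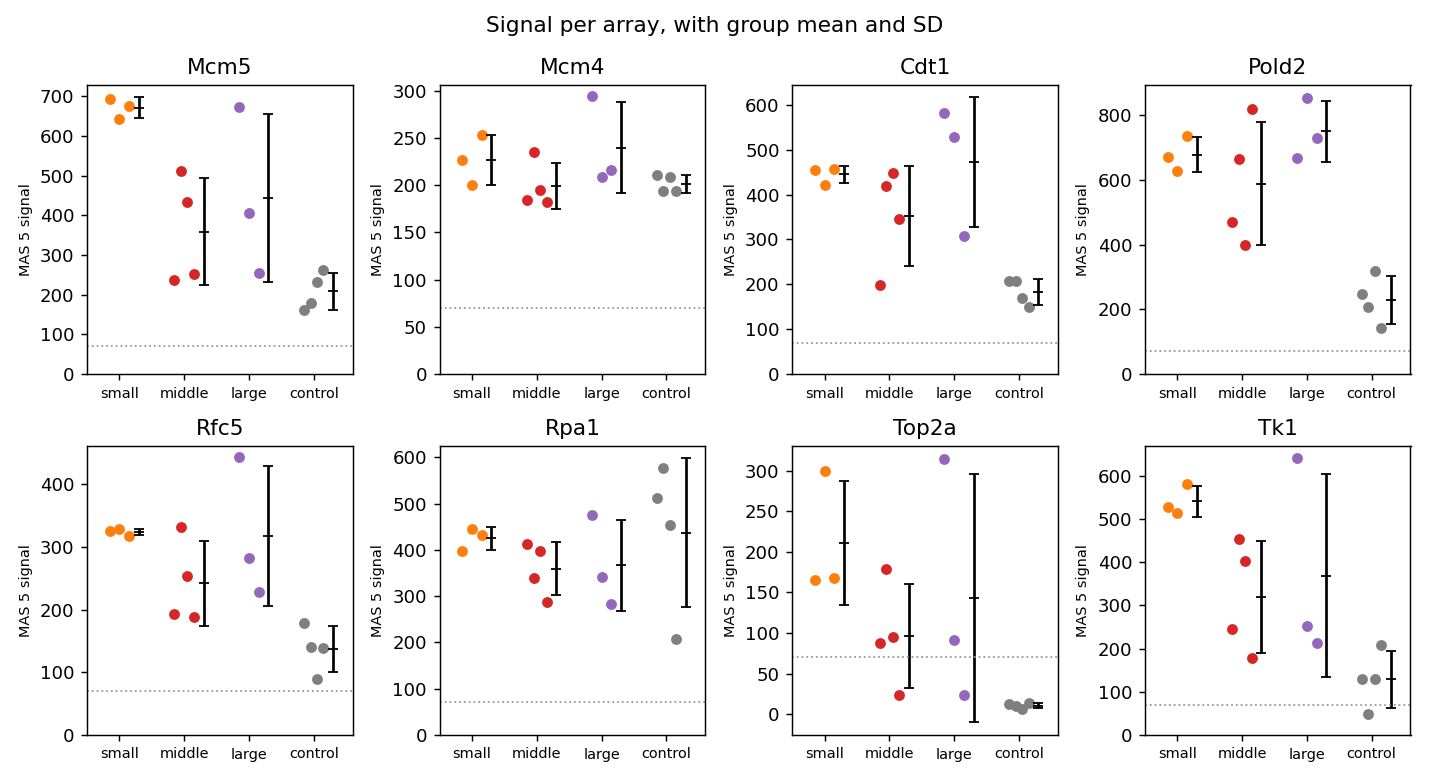
Points are the MAS 5 signals of 8 genes on each array, by group (small, middle-sized and large tumors, then control lung), with the group mean and SD as bars and the limit of 70 as a dotted line. Mcm5, Cdt1, Pold2, Rfc5, Top2a and Tk1 show tumors mostly above control lung, with small pools close together in each but Top2a and middle-sized and large tumors more spread out, while Mcm4 and Rpa1 overlap with control lung.

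All 3 tested genes of deoxynucleotide supply were higher. Tk1, the thymidine kinase of S phase, read 528, 514 and 581 in small pools, 245, 454, 402 and 179 in middle-sized tumors and 640, 252 and 214 in large tumors, against 131, 47.2, 130 and 209 in control lung. Control lung 4 was above middle-sized tumor 4, and the other tumors stood above all controls, with a log2 fold change of 1.58 ± 0.33 (SE, adjusted p = 0.00126). A further probe set of Tk1 was below 70 on every array, with 11 to 52.2 in 9 tumors and 7.96 to 53.6 in control lung.

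Ribonucleotide reductase makes deoxynucleotides from ribonucleotides, with Rrm1 as its large and Rrm2 as its small subunit of S phase. Rrm1 had 258, 285 and 285 in small pools, 109, 265, 168 and 88.3 in middle-sized tumors and 448, 181 and 58.3 in large tumors, against 77.0, 97.3, 93.1 and 23.5 in control lung. Middle-sized tumor 4 and large tumor 3 overlapped with control lung, and the log2 fold change was 1.20 ± 0.37 (SE, adjusted p = 0.0173), a call lost without control lung 1 or 4. Rrm2 had 217, 179 and 185 in small pools, 60.8, 137, 97.4 and 57.3 in middle-sized tumors and 240, 88.8 and 53.2 in large tumors, against 31.8, 38.5, 31.3 and 31.3 in control lung.

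Every tumor exceeded every control for Rrm2, including the 3 tumors below 70, and the log2 fold change after the limit was applied was 0.84 ± 0.26 (SE, adjusted p = 0.0165), with small pools at least 2.77-fold higher. A further probe set of Rrm1 stayed between 2.67 and 16.3 on all arrays. Dut, the dUTPase, was below 70 everywhere but in control lung 4, where it read 152, and the tumors had 8.89 to 55.8.

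Chromatin assembly factor CAF-1 places histones behind the fork, and 1 of its 2 subunits was higher. Chaf1b read 124, 113 and 168 in small pools, 155, 143, 126 and 74.8 in middle-sized tumors and 144, 112 and 103 in large tumors, against 36.7, 57.8, 62.0 and 120 in control lung. Control lung 4 overlapped with 4 tumors, and the log2 fold change was 0.63 ± 0.21 (SE, adjusted p = 0.0236), a call lost without control lung 1, 2 or 3. Chaf1a had 90.4, 102 and 93.8 in small pools, 30.3, 68.5, 91.3 and 62.2 in middle-sized tumors and 130, 25.5 and 76.4 in large tumors, against 120, 103, 83.9 and 127 in control lung. It was below every control in 5 of 10 tumors and had the lowest log2 fold change of the list, -0.32 (interval -0.66 to 0.02), which was not called (adjusted p = 0.119) but was called lower without large tumor 1.

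By tumor size, 20 of the 35 genes were higher in small tumor pools than in control lung, 7 in middle-sized tumors and 12 in large tumors, and 0 were lower in each (limma, adjusted p under 0.05). Over all probe sets, 19.9% were higher and 16.7% lower in small pools, 15.8% and 16.4% in middle-sized tumors, and 19.8% and 18.3% in large tumors. Without adjustment, 23, 10 and 18 genes were higher and 1 was lower, Chaf1a in middle-sized tumors (log2 fold change -0.52, adjusted p = 0.0509). At that limit 24.5%, 21.5% and 24.8% of all probe sets were higher and 20.9%, 20.3% and 21.9% lower. Both directions together, the 11 of 35 genes in middle-sized tumors were a smaller share than the 2894 of 6914 probe sets. The median over the 35 genes, on the log2 scale, was 0.70 in small pools, 0.28 in middle-sized tumors and 0.57 in large tumors. These counts and medians include the 10 genes that could reach 70 on 3 arrays only with the help of tumors.

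The genes called in middle-sized tumors were Mcm2, Mcm7, Cdt1, Pold2, Rfc5, Rpa3 and Tk1, and those in large tumors were these and Mcm3, Mcm5, Pola1, Pold1 and Fen1. Cdc6, Cdc45, Pcna, Rfc4, Top2a, Rrm1, Rrm2 and Chaf1b were called in small pools and had adjusted p of 0.0592 to 0.161 in large tumors and 0.0871 to 0.742 in middle-sized tumors. Of the 6 called genes that needed tumors to reach 70 on 3 arrays, all were called in small pools. Only Pola1 of them was called in large tumors and none in middle-sized tumors, so they raise the count of small pools most. Single arrays carried weight in these counts, since 6 genes were higher in large tumors without large tumor 1 and 18 without large tumor 3, and in middle-sized tumors 3 were higher without middle-sized tumor 2 and 4 without middle-sized tumor 3 or control lung 2. The count in middle-sized tumors was also 13 with no floor, 12 with a floor of 35, 4 with no filter and 2 with the methods' unpaired test, and the count in large tumors was 6 with that test.

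**Figure D3:**
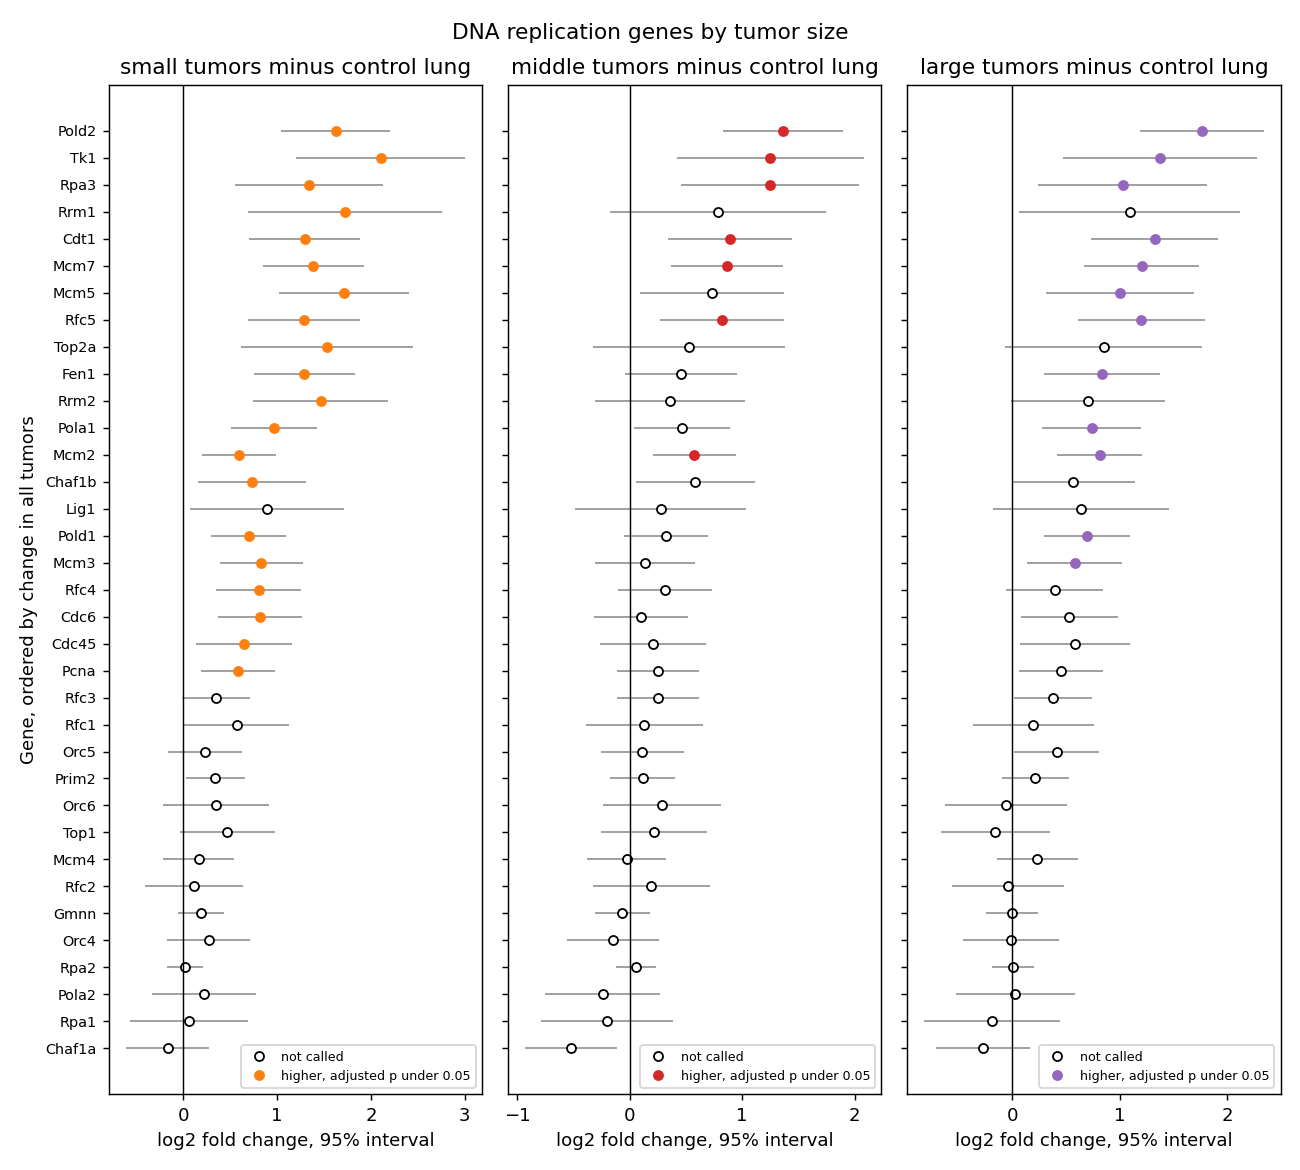
Points are log2 fold changes of the 35 tested genes against control lung in small tumor pools, middle-sized tumors and large tumors, with 95% intervals, in the order of the change in all tumors; filled points had an adjusted p under 0.05. There are 20, 7 and 12 filled points, with Pold2 and Tk1 at the top and Chaf1a at the bottom.

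In direct comparisons of the sizes 0 of the 35 genes were called by limma, between small pools and large tumors (0.0289% of all probe sets), between small pools and middle-sized tumors (0%) and between middle-sized and large tumors (0%). The methods' unpaired test with adjustment also called 0 in each. Unadjusted p under 0.05 were found by limma for 1, 8 and 0 genes, beside 560, 449 and 677 of all 6914 probe sets. The gene between small pools and large tumors was Top1, with a log2 difference of 0.62 (interval 0.08 to 1.17, adjusted p = 0.54). The 8 genes between small pools and middle-sized tumors were Rrm2 (1.10), Top2a (1.01), Mcm5 (0.98), Fen1 (0.83), Cdc6 (0.71), Mcm3 (0.70), Pola1 (0.50) and Rfc4 (0.49), all higher in small pools on the log2 scale and all with adjusted p of 0.664 or more. For Rrm2 the interval of the difference was 0.38 to 1.82, and for Mcm5 0.29 to 1.67.

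Among the 20 called genes the mean was highest in small pools for 17 and in large tumors for 3, and it was lowest in middle-sized tumors for 18. The 6 genes that needed tumors to reach 70 on 3 arrays are among these 20. Over all 1631 probe sets called higher, small pools were highest in 43.7% and middle-sized tumors lowest in 59.6%. The small pools had the least spread. The median SD of the log2 signal over the called genes was 0.13 in small pools, 0.44 in middle-sized tumors and 0.45 in large tumors, with 0.21 in control lung, beside 0.15, 0.32, 0.23 and 0.23 over all probe sets tested. Each small pool held several tumors of an animal, so its spread is that of an average, and size and pooling cannot be told apart.

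Single tumors differed widely. The median of the 20 called genes, as log2 signal minus the control mean, was 1.09, 1.26 and 1.26 in the small pools, 0.35, 1.08, 0.60 and 0.22 in the middle-sized tumors and 1.44, 0.62 and 0.34 in the large tumors. Of the 18 called genes measured on all arrays, 12 had their highest tumor signal in large tumor 1, and the lowest was in middle-sized tumor 4 for 7, in middle-sized tumor 1 for 5 and in large tumor 3 for 4. These 18 include Cdc6, Pola1, Rfc4, Top2a, Rrm2 and Chaf1b, which needed tumors to reach 70 on 3 arrays. The same counts and medians over all probe sets were not computed, so a trait of a whole array and one of these genes cannot be told apart. The Myc signals of the same arrays were 1738, 1391 and 1417 in small pools, 325, 1246, 451 and 760 in middle-sized tumors and 2165, 2008 and 1055 in large tumors. Middle-sized tumor 2 and large tumor 1 were the highest of their size on both measures, small pool 1 had the highest Myc and the lowest replication genes of the small pools, and middle-sized tumor 1 had the lowest Myc but not the lowest replication genes. Ighm, the heavy chain of immunoglobulin M, read 1721 in small pool 1, 2459 in middle-sized tumor 1 and 2043 in middle-sized tumor 3, and at most 543 in the other tumors, against 1558 to 1917 in control lung. Middle-sized tumor 4 and large tumor 3, with the lowest medians of the called genes, had Ighm signals of 501 and 543. Of the other B cell markers, Cd79a (108) and Ms4a1 (171) were also highest in middle-sized tumor 1, but Cd79b was highest in middle-sized tumor 4 (260). In small pool 1, Cd79a (69.6), Cd79b (143) and Ms4a1 (66.9) were the lowest of the small pools. The part of Ighm-expressing cells in the values of these tumors was not tested.

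Further genes of the same pathway were taken from a list of 62, of which 45 were on the array and 35 were tested. In all tumors 14 were higher and 2 lower, beside the 23.6% and 21% of all probe sets. Of other fork and origin genes, 3 of 10 were higher, and these were Rnaseh2a, which removes RNA primers (log2 fold change 0.94, adjusted p = 0.00114), Topbp1, which helps to fire origins (0.58), and Pole3, a histone-fold subunit of polymerase epsilon (0.33). Of genes of nucleotide supply, histones and maintenance, 7 of 15 were higher, led by Pclaf, a partner of PCNA (1.45, adjusted p = 0.00654), Uhrf1, which guides maintenance methylation (1.24), and Dtymk, thymidylate kinase (1.09). Pclaf, Uhrf1, Asf1b, Rnaseh2a and Topbp1 were among 10 further genes that could reach 70 on 3 arrays only with the help of tumors, and of the 25 others 9 were higher and 2 lower. Pclaf had 371, 310 and 324 in small pools, 110, 257, 142 and 49.4 in middle-sized tumors and 442, 136 and 58.5 in large tumors, against 59.7, 43.8, 45.3 and 45.9 in control lung. Like Rrm2 and Top2a it was lowest in middle-sized tumor 4 and large tumor 3.

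Rrm2b, the small reductase subunit used outside S phase, was the lower gene of that group, at 127 ± 20.0 in tumors (SD, n = 10) and 205 ± 25.0 in control lung (SD, n = 4), with -0.71 on the log2 scale (adjusted p = 0.00161). Of genes of G1/S control, 4 of 10 were higher. They were Tfdp1, the partner of E2F factors (1.52, adjusted p = 4.29e-05), Ccna2, cyclin A of S phase (1.45, adjusted p = 0.00106), Ccne1, cyclin E (0.66), and Cdk2, the kinase of both cyclins (0.63). Rb1, the retinoblastoma protein that restrains E2F, was lower, with 66.7 ± 17.9 in tumors (SD, n = 10) and 179 ± 20.9 in control lung (SD, n = 4), with -1.25 on the log2 scale (adjusted p = 9.14e-07). E2f1 itself was near the limit in both groups, at 41.3 to 85.4 in 9 tumors and 35.3 to 92.1 in control lung, and was not called (adjusted p = 0.495).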

How the data were processed

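RNA of 14 samples was hybridized to Affymetrix Murine Genome U74v2 arrays, an array each. The authors computed the deposited values with MAS 5 in GCOS, a linear signal intensity per probe set, with every array set to a target of 250. An array therefore gives each transcript as a share of what it measured. The trimmed mean of the deposited values was 195 for middle-sized tumor 3, with its values at or close to 0 included, and 249 to 250 for the other arrays. Whether the scale of that array differs from the others was not tested. The number of arrays limits the precision. The p-values rest on a spread shared by all groups, in which differences between tumors and between animals cannot be told apart. Detection and change calls were not used here.

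Values of 0 or next to 0 (below 1e-06) were found on 1 array, middle-sized tumor 3, for 3125 probe sets, and were treated as missing. They include all 2445 probe sets whose 6-digit numbers start with 16. Signals were floored at 70 and put on the log2 scale, probe sets that reached 70 on 3 arrays or more entered the test, and for each symbol the probe set with the highest mean was used. The 4 groups entered a single limma fit (version 3.58.1, under R 4.3.3) whose prior variance followed the mean signal, and p-values were adjusted over 6914 probe sets by Benjamini-Hochberg. The comparison of all tumors averages the 3 sizes. Calls were made at an adjusted p under 0.05, and the steps were tested on simulated data. Further probe sets of a gene come from a fit of all 12422 probe sets without the filter.

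Signals per array are given for the genes with the largest and smallest change of each role with 3 or more tested genes, for all genes of smaller roles, for genes called lower or between sizes, and for genes whose probe sets differ in call; the array values of Pclaf and Ighm were added after they were seen. Other pathway genes named are the 3 largest changes of each group and those called lower, and Cdk2 and E2f1 were added after their values were seen. The genes, the further lists (other fork and origin genes, supply and maintenance genes, G1/S control, and markers of 8 cell types), the tests and the alternatives were chosen with earlier results of these data known. Alternatives were no floor, a floor of 35, scaling to 1 median, quantile normalization, at least 70 on 7 arrays, no filter, all probe sets, values of 0 kept, only the groups compared, a replicate block, the methods' unpaired test, array weights, and leaving out each array. Promoters are from RefSeq.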

Additional observations from a re-analysis of the deposited data

Results flagged for a closer look

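In 4 of 65 groups of 4 arrays, among the probe sets used for each gene, the highest or lowest array stood farther from the others than Dixon's limit at the 95% level. About 1 in 20 groups is expected to pass this limit by chance. All 4 were control lungs. Control lung 4 had a Prim2 signal of 9.04, beside 32.6 to 39.0 in the other control lungs, and an Rrm1 signal of 23.5, beside 77.0 to 97.3. Control lung 1 had an Rfc4 signal of 15.5, beside 28.1 to 31.0. Control lung 2 had an Rrm2 signal of 38.5, beside 31.3 to 31.8. For Prim2, Rfc4 and Rrm2 all of these signals were below 70 and were set to 70 before testing, so they did not enter the tests as a spread. For Rrm1 the low value of control lung 4 was also set to 70, and it entered the tests beside 77.0 to 97.3.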

How the results depend on the processing

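Over 26 alternatives, 10 of the 20 genes called higher in all tumors were called in each (Mcm2, Mcm5, Mcm7, Cdt1, Pola1, Pold1, Pold2, Rfc5, Fen1 and Tk1), and 10 of the 15 others were never called. Calls were lost in at least 1 alternative for Cdc45 (17 alternatives), Top2a (8), Cdc6 (7), Chaf1b (6), Rrm1 (5), Mcm3 and Rfc4 (4 each), Pcna (3), Rrm2 (2) and Rpa3 (1, with the values of 0 kept). The lost calls have adjusted p of at most 0.361, the highest of them for Mcm3 with the values of 0 kept. Gained were Rfc3 in 7 alternatives, Prim2 in 2 (no floor and a floor of 35), Chaf1a, lower, in 2 (array weights and without large tumor 1), Rpa1, lower, without control lung 4, and Lig1 without control lung 2.

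The count higher in all tumors was 13 to 20 when single arrays were left out, lowest without control lung 1, and 14 to 21 under the other alternatives. Over all probe sets the share higher was 19.8% to 25.1% when single arrays were left out, also lowest without control lung 1. Under the other alternatives it was 14.9% to 29.6%. For single sizes such shares were computed only with the methods' unpaired test among the alternatives. The count lower was 0 to 1 when single arrays were left out, and 1 with array weights. In middle-sized tumors 13 were higher with no floor, 12 with a floor of 35, 4 with no filter, 4 with all probe sets and 2 with the methods' unpaired test, and 3 to 9 when single arrays were left out. In large tumors 6 were higher with the methods' unpaired test and 6 to 18 when single arrays were left out, and in small pools 16 to 22. Between sizes 0 were called in every alternative. Of the other pathway genes 11 to 16 were higher when single arrays were left out. At its own threshold, without adjustment, the methods' unpaired test called 19 genes higher in all tumors, 25 in small pools, 8 in middle-sized tumors (1 lower) and 10 in large tumors, beside 26.1%, 26.3%, 16.9% and 23.1% of all probe sets higher. After adjustment it called 14, 21, 2 and 6, beside 22.1%, 20.8%, 7.2% and 16.4%. The causes of these shifts were not tested.

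Some genes without a call changed sign. The log2 fold change of Pola2 was -0.022 in the methods' unpaired test, that of Rfc2 was -0.12 with the values of 0 kept, and that of Rpa1 was 0.00100 with arrays scaled to 1 median. When single arrays were left out, Orc4 ranged from -0.013 to 0.11, Pola2 from -0.081 to 0.065, Rfc2 from -0.022 to 0.19 and Rpa1 from -0.44 to 0.057.

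The replicate numbers of the labels did not pair the arrays, since 1 of 19 pairs of arrays with the same number had deviations from the group means that correlated above 0.1 (range -0.229 to 0.135). With the number as a replicate block 16 genes were higher in all tumors, 18 in small pools, 7 in middle-sized tumors and 9 in large tumors. Genes below 70 in control lung have no measured spread there, and the array number limits every comparison of sizes.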
